A study of Mus musculus with 8 samples.

Results

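The genes of desmosome and hemidesmosome plaques were examined in colonic epithelial cells of mice colonized with Bacteroides thetaiotaomicron (B. theta). The 10 genes were Dsg2, Dsc2, Jup, Pkp2, Pkp3, Dsp, Ppl, Evpl, Plec and Dst, and every probe set annotated to 1 of them and to no other gene was taken. This gave 27 of the 45037 probe sets tested and 10 of the 18193 genes they cover. Gene expression was measured on 8 arrays, 1 per mouse, 4 for each of 2 groups. All 8 mice were males kept under specific pathogen-free conditions (C57BL/6 per the methods) that had first received metronidazole (metronidazone in the labels) and ciprofloxacin. They were colonized at 8 wk of age with wild-type B. theta (BTWT) or with the mutant deleted for the mucus-associated functional factor operon, called MAFF (BTΔMAFF, BTDMAFF in the labels), and were sampled at 12 wk, 4 wk after colonization. The epithelial cells were sorted as living cells, stained for the epithelial surface protein EpCAM and without the leukocyte protein CD45. The comparison asks how the presence of the MAFF genes in the bacterium relates to gene expression in the host epithelium. Antibiotic-treated mice without B. theta were not analysed here, so a difference between the groups has no uncolonized baseline. The sort was not complete per the labels, and a minority of other cells may remain in the samples.

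Desmosomes are spot-like junctions that tie the keratin filaments of neighbouring epithelial cells together. Their cadherins, desmogleins and desmocollins, bind across the gap between cells, and their cytoplasmic tails hold the armadillo proteins plakoglobin and plakophilins, which bind desmoplakin, a plakin that anchors keratin. Hemidesmosomes tie keratin to the basement membrane, through plectin and, in stratified epithelia, the epithelial isoform of dystonin, which bind the integrin α6β4. The colonic epithelium is a single layer that is renewed from its crypts and shed at its surface, and both kinds of junction hold it together.

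The deposited values are log2 expression values from which the median of the 8 arrays was subtracted for each probe set. A value of 0.50 therefore means higher than the median mouse by that amount on the log2 scale, and levels cannot be compared between probe sets or genes. Differences are BTWT minus BTΔMAFF, with mean ± SD over 4 mice per group, and a probe set is said to differ at an unadjusted limma p under 0.05. No probe set on the arrays passed 0.05 after Benjamini-Hochberg adjustment (0% of 45037), whereas limma gave 2295 at an unadjusted p under 0.05 and the methods' unpaired test 1721 unadjusted and 0 adjusted. In a principal component analysis the first axis (29.4% of the variance) set BTWT 2 and BTΔMAFF 4 apart from the remaining 6 mice. In cells sorted and measured in bulk, fewer cells of a type and less RNA per cell cannot be told apart.

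Of the 27 probe sets, 7 were lower in BTWT-colonized mice and 0 were higher. The 7 belonged to 4 genes: Plec (3 probe sets), Pkp3 (2), Evpl and Ppl. They were 25.9% of the probe sets of the 10 genes, while 2.86% of all probe sets were lower by the same rule and 2.24% were higher. Counted among probe sets whose SD over the 8 arrays was at or above the median, 5.53% of all were lower, and the 10 genes had 23 such probe sets with 6 of them lower. In 6 of the 27, every BTWT mouse lay below every BTΔMAFF mouse, which held for 1.56% of all probe sets, and in 0 did every BTWT mouse lie above (1.27% of all). The differences were negative in 19 of the 27 (70.4%, against 30.1% of all probe sets and 49.2% of those with an SD at or above the median). Their median was -0.10, against 0.02 (log2) over all probe sets. None reached a fold change of 2, and the largest was 1.70-fold, in Plec. Probe sets lower by both a fold over 2 and p were 0.286% of all. The lowest adjusted p among the 27 was 0.243, for Evpl. Without both arrays that stood apart, 6 of the 27 were lower and 0 were higher. Of all 45037 probe sets, 1624 were lower and 3121 higher in that fit, against 1288 and 1007 with all 8 arrays.

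**Figure D1:**
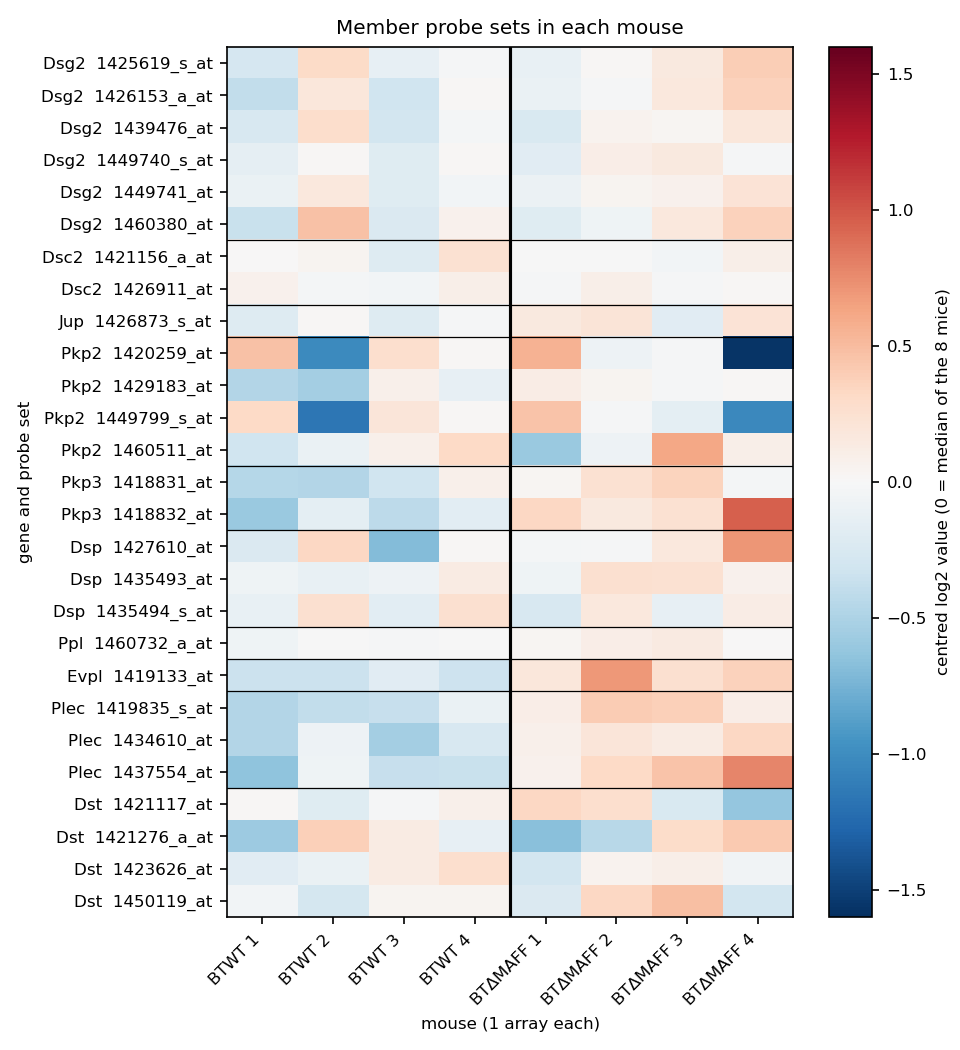
Log2 values of the 27 probe sets (rows, named by gene) in the 8 mice (columns, 4 BTWT and 4 BTΔMAFF), each relative to the median mouse, in colour. The rows of Plec, Pkp3 and Evpl were lower in the BTWT columns, and 2 rows of Pkp2 were lowest in BTWT 2 and BTΔMAFF 4.

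Among the cadherins, which form the adhesive contact, no probe set passed in limma without array weights. Dsg2, the desmoglein of simple epithelia, was measured by 6 probe sets, and all 6 differences were negative, from -0.23 to -0.08, with unadjusted p from 0.185 to 0.707. With array weights, its probe sets 1426153_a_at (limma unadjusted p = 0.0307), 1449740_s_at (unadjusted p = 0.0365) and 1449741_at (unadjusted p = 0.0247) passed as lower. In that fit 4104 of all probe sets were lower. Its probe set 1426153_a_at had the largest, with values in BTWT 1 to 4 of -0.39, 0.18, -0.31 and 0.015 and in BTΔMAFF 1 to 4 of -0.10, -0.015, 0.17 and 0.37. The groups overlapped, and the highest BTWT value was in the array that stood apart. The 95% confidence interval of the difference ran from -0.61 to 0.14. Of these 6 probe sets, 2 pairs share a target record and are not independent measurements.

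Dsc2, the desmocollin that pairs with Dsg2 in the colon, varied little. Probe set 1426911_at ranged from -0.040 to 0.097 in the BTWT mice and from -0.017 to 0.098 in the BTΔMAFF mice. The difference was 0.0036, with a 95% confidence interval from -0.10 to 0.11. For 1421156_a_at the difference was 0.011, with an interval from -0.20 to 0.23. These intervals leave room for a change of at most 0.23 in either direction, and the sign of both turned under several alternatives.

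Among the armadillo proteins, Pkp3 was the one that differed. Pkp3 encodes plakophilin 3, which binds cadherins, plakoglobin and desmoplakin and strengthens the plaque. On probe set 1418832_at, BTWT 1 to 4 had -0.60, -0.15, -0.41 and -0.17, and BTΔMAFF 1 to 4 had 0.33, 0.15, 0.24 and 0.96. All BTWT mice lay below all BTΔMAFF mice, and the highest value was in BTΔMAFF 4. The means were -0.33 ± 0.21 and 0.42 ± 0.37 (SD, n = 4 each), a difference of -0.75 ± 0.20 (SE), or 1.69-fold, with unadjusted p = 0.00632 and adjusted p = 0.570 in limma.

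The other Pkp3 probe set, 1418831_at, gave -0.45, -0.46, -0.31 and 0.087 in BTWT 1 to 4, against 0.031, 0.24, 0.36 and -0.031 in BTΔMAFF 1 to 4. BTWT 4 overlapped the BTΔMAFF mice, and the other 3 BTWT mice lay below all of them. The difference was -0.44 ± 0.15 (SE; limma unadjusted p = 0.0208, adjusted p = 0.817). It did not hold in 4 of the 8 fits that left out 1 mouse (BTWT 1, BTWT 2, BTΔMAFF 2 or BTΔMAFF 3), where the unadjusted p reached 0.0549, nor without both arrays that stood apart (unadjusted p = 0.0543).

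Jup encodes plakoglobin, which links the cadherin tails to desmoplakin and also serves in adherens junctions. Its single probe set gave -0.20, 0.019, -0.21 and -0.019 in BTWT 1 to 4, and 0.15, 0.20, -0.18 and 0.22 in BTΔMAFF 1 to 4. BTΔMAFF 3 lay among the BTWT mice, and the other 3 BTΔMAFF mice lay above every BTWT mouse. The difference of -0.20 ± 0.10 (SE) did not pass (limma unadjusted p = 0.0964). Without BTΔMAFF 3 it was -0.29 and passed, at an unadjusted p of 0.00558. With array weights it was -0.32 and also passed (limma unadjusted p = 0.00548).

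Pkp2, the plakophilin found in simple epithelia and heart, did not pass on any of 4 probe sets, and their differences ran in both directions. Probe set 1420259_at had 0.47, -1.02, 0.27 and 0.017 in BTWT 1 to 4 and 0.56, -0.078, -0.017 and -1.57 in BTΔMAFF 1 to 4. The lowest mice were BTWT 2 and BTΔMAFF 4, the arrays that stood apart. Their mean minus the mean of the other 6 mice was -1.5 on the log2 scale, and -1.23 on 1449799_s_at, which shares a target record. The differences between groups on these probe sets were 0.21 (95% confidence interval -1.02 to 1.44) and 0.029 (-0.98 to 1.03).

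Pkp2 probe set 1429183_at did not follow that pattern. Its values were -0.47, -0.55, 0.078 and -0.13 in BTWT 1 to 4 and 0.12, 0.043, -0.013 and 0.013 in BTΔMAFF 1 to 4. BTWT 3 overlapped the BTΔMAFF mice. The difference was -0.31 ± 0.14 (SE) with unadjusted p = 0.0610 in limma, and unadjusted p = 0.00631 without BTWT 3. On 1460511_at it was -0.019 with unadjusted p = 0.946.

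**Figure D2:**
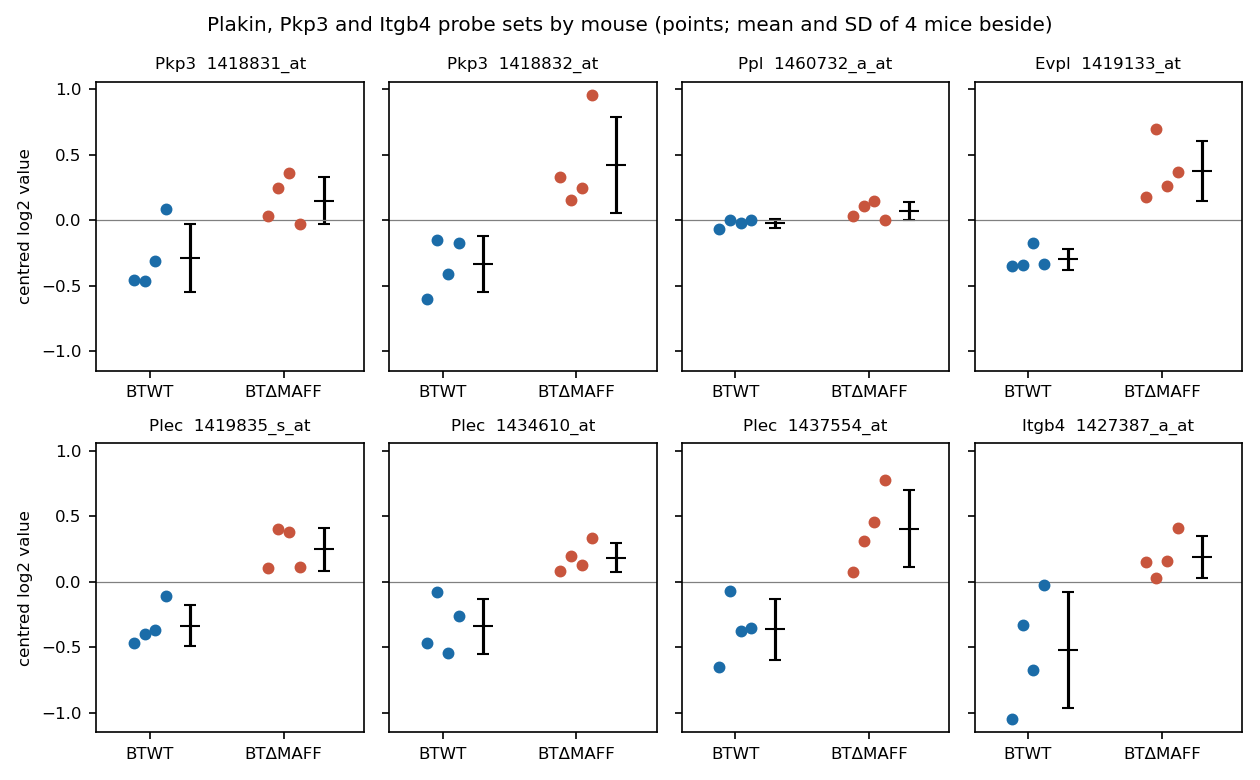
Log2 values of the 7 probe sets that were lower in BTWT and of the partner gene Itgb4 (1 panel each). Each panel has 1 point per mouse and a mark at the mean of the 4 mice of each group, with the SD as bar. The points of the groups overlap in the panel of Pkp3 probe set 1418831_at and in no other panel.

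The plakins connect the plaque to filaments. Dsp encodes desmoplakin, the obligate keratin anchor of the desmosome, and none of its 3 probe sets passed. Probe set 1427610_at had -0.23, 0.34, -0.70 and 0.013 in BTWT 1 to 4 and -0.036, -0.013, 0.17 and 0.71 in BTΔMAFF 1 to 4. Within each group the highest value was in the array that stood apart, and the groups overlapped. The difference was -0.35 with a 95% confidence interval from -0.96 to 0.26. On 1435493_at it was -0.16 (limma unadjusted p = 0.118), and on 1435494_s_at, with which it shares a target record, it was 0.078 (unadjusted p = 0.599). The former passed without BTWT 4 (unadjusted p = 0.0482), without BTΔMAFF 1 (unadjusted p = 0.0303) and with array weights (unadjusted p = 0.0202). With array weights 1427610_at passed as well (limma unadjusted p = 0.0334).

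Evpl and Ppl encode envoplakin and periplakin, plakins that dimerize and are best known from the cornified envelope of stratified epithelia. Evpl had the smallest p of the 27 probe sets and ranked 104 among all 45037. BTWT 1 to 4 had -0.35, -0.34, -0.18 and -0.33, and BTΔMAFF 1 to 4 had 0.18, 0.70, 0.26 and 0.37. The BTWT mice lay close together, and all of them lay below every BTΔMAFF mouse. The means were -0.30 ± 0.082 and 0.38 ± 0.23 (SD, n = 4 each), a difference of -0.67 with a 95% confidence interval from -0.94 to -0.41, or 1.6-fold, with unadjusted p = 0.000579 and adjusted p = 0.243 in limma. With 1 mouse left out, it ranged from -0.74 to -0.57 and passed each time.

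Ppl had a small difference. Its probe set gave -0.070, -0.0011, -0.022 and -0.0011 in BTWT 1 to 4, against 0.035, 0.11, 0.15 and 0.0011 in BTΔMAFF 1 to 4. The groups did not overlap, but BTΔMAFF 4 lay just above BTWT 2 and BTWT 4. The difference was -0.097 ± 0.039 (SE; 1.07-fold, limma unadjusted p = 0.0417, adjusted p = 0.828). It did not pass in 6 of the 8 fits without 1 mouse, those without any of the 4 BTWT mice, BTΔMAFF 2 or BTΔMAFF 3, where the unadjusted p reached 0.109, and it did not pass after quantile normalization (unadjusted p = 0.0501) or centring of arrays (unadjusted p = 0.0534).

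Plec encodes plectin, the large plakin that joins keratin to integrin β4 in hemidesmosomes and also crosslinks filaments elsewhere in the cell. All 3 of its probe sets were lower in BTWT, with no overlap between the groups on any. On 1419835_s_at, BTWT 1 to 4 had -0.47, -0.40, -0.37 and -0.11, and BTΔMAFF 1 to 4 had 0.11, 0.40, 0.38 and 0.11. BTWT 4 was the nearest to the BTΔMAFF mice. The difference was -0.58 ± 0.11 (SE; 1.5-fold, limma unadjusted p = 0.00089, adjusted p = 0.282).

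On 1437554_at the Plec values were -0.65, -0.074, -0.37 and -0.36 in BTWT 1 to 4 and 0.074, 0.32, 0.46 and 0.78 in BTΔMAFF 1 to 4. Here BTWT 2 and BTΔMAFF 1 were the closest mice, and BTΔMAFF 4 was the highest. The difference was -0.77 ± 0.17 (SE), with unadjusted p = 0.00312 and adjusted p = 0.457 in limma. On 1434610_at the BTWT mice ranged from -0.54 to -0.081 and the BTΔMAFF mice from 0.081 to 0.33, a difference of -0.52 (unadjusted p = 0.00213, adjusted p = 0.414). All 3 differences passed in every fit without 1 mouse, where the highest p was 0.0101.

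Dst, which encodes dystonin, the other hemidesmosomal plakin, did not pass on any probe set. Its 4 probe sets gave differences of 0.039, 0.048, 0.077 and -0.13, with unadjusted p from 0.526 to 0.883. Of these, 1421117_at and 1450119_at share a target record and are not independent measurements. Probe set 1421276_a_at was the most spread, with -0.58, 0.38, 0.14 and -0.14 in BTWT 1 to 4 and -0.67, -0.44, 0.29 and 0.42 in BTΔMAFF 1 to 4. The low and high mice were found in both groups. The interval of its difference, from -0.69 to 0.79, includes the differences of 2 of the 3 Plec probe sets. That of 1450119_at (-0.59 to 0.33) includes the same 2. Those of 1421117_at (-0.47 to 0.55) and 1423626_at (-0.22 to 0.37) include none of the 3. Dst also has neuronal and muscle transcripts, and which of them each probe set reads is not given in the sources used here.

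**Figure D3:**
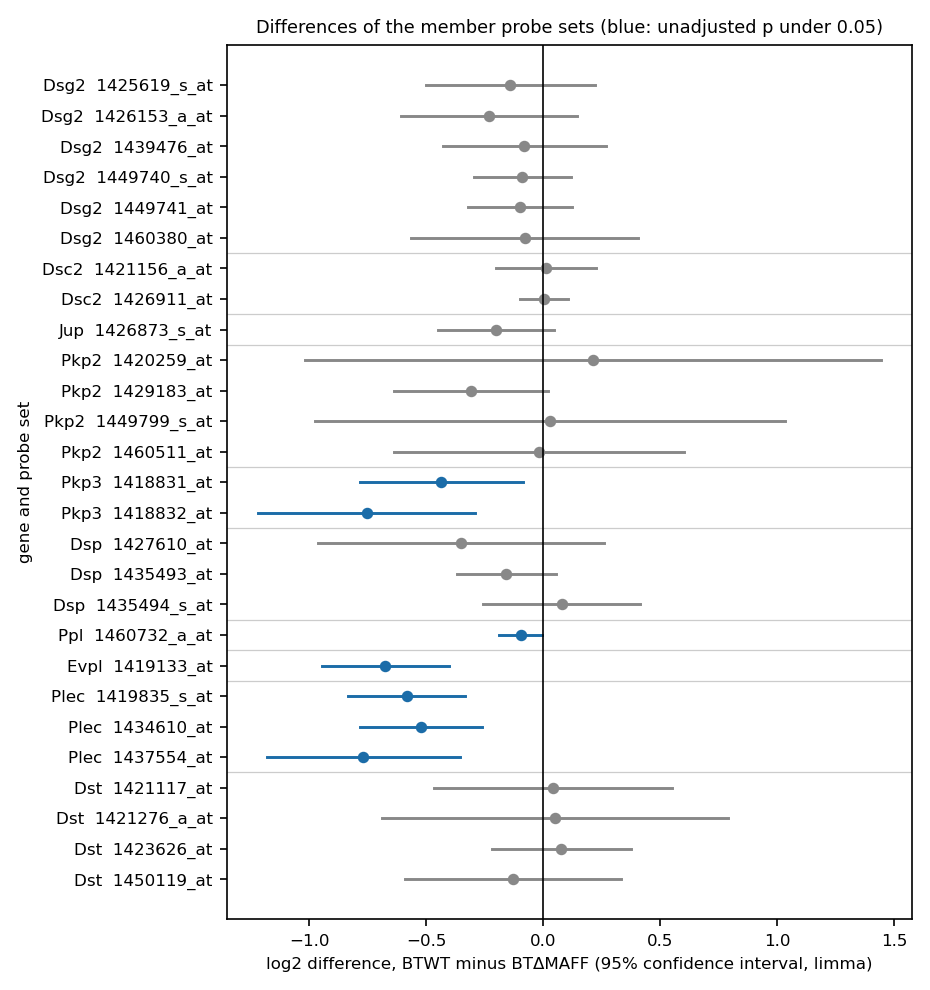
Differences (log2, BTWT minus BTΔMAFF, points) with 95% confidence intervals from limma (lines) for the 27 probe sets, grouped by gene. The intervals of Evpl, Ppl and of all probe sets of Plec and Pkp3 lie below 0, and those of Dsg2, Dsc2, Dsp, Dst, Jup and Pkp2 include 0.

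Related members were next set against each other within each mouse, with the mean of the probe sets of each gene. The 4 pairs were chosen after the values of each gene were seen, so these differences are a description, and their p-values are no independent support. Plec minus Dst was -0.32 ± 0.15 in BTWT and 0.32 ± 0.16 in BTΔMAFF mice (SD, n = 4 each). Evpl minus Ppl was -0.27 ± 0.086 and 0.30 ± 0.22 (SD, n = 4 each). In both pairs every BTWT mouse lay below every BTΔMAFF mouse. Between the groups, Pkp3 minus Pkp2 differed by -0.57 and Dsg2 minus Dsc2 by -0.13, with overlapping groups. The exact permutation p was 0.0286 for Plec minus Dst and for Evpl minus Ppl (each adjusted 0.0571 over the 4 pairs). It was 0.171 for Pkp3 minus Pkp2 and 0.371 for Dsg2 minus Dsc2, and no pair passed adjustment.

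How far the members moved together from mouse to mouse was examined over the 8 mice, with the probe set of largest SD for each gene. Of the 45 pairs of genes, 32 had a positive Pearson correlation, and the median r was 0.32. One pair passed adjustment over the 45: Pkp3 and Plec, with r = 0.94 (exact permutation p = 0.000694, adjusted 0.0313) and Spearman's rho = 0.93 (exact permutation p = 0.00223, adjusted 0.0502), and r = 0.83 without the 2 mice farthest from the median of Pkp3. Both genes were lower in BTWT without overlap of the groups, so this r includes the difference between the groups. With the group means removed, r was 0.79 (permutation p = 0.0191, adjusted 0.0903) and rho was 0.71 (permutation p = 0.0576, adjusted 0.185). Without the 2 farthest mice r was 0.34, so it rested on those mice. Permutation p-values with the group means removed are approximate and may be too small. The values were shuffled over all 8 mice without regard to group, although each group's values had been made to sum to 0.

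With the group means removed, 4 pairs passed adjustment over the 45, by p-values that are approximate for the reason given above. Plec varied with Dst (r = 0.93, permutation p = 0.000248, adjusted 0.00949, and rho = 0.98, permutation p = 0.000397, adjusted 0.0179). It ran opposite to Pkp2 (r = -0.94, permutation p = 0.000422, adjusted 0.00949, and rho = -0.88, permutation p = 0.00724, adjusted 0.0652). It followed Dsg2 (r = 0.91, permutation p = 0.00176, adjusted 0.0264, and rho = 0.93, permutation p = 0.00223, adjusted 0.0502). Dsg2 ran opposite to Pkp2 with the group means removed (r = -0.88, permutation p = 0.00402, adjusted 0.0452). Over all 8 values as deposited their r was also -0.88 (exact permutation p = 0.00265, adjusted 0.0597), with rho = -0.83 (exact permutation p = 0.0154, adjusted 0.0989). Without the 2 farthest mice, the 4 values with group means removed were 0.88, -0.87, 0.82 and -0.72. Over the values as deposited the 3 pairs with Plec did not pass: r was 0.43 with Dst (exact permutation p = 0.283, adjusted 0.528), -0.61 with Pkp2 (exact permutation p = 0.116, adjusted 0.285) and 0.59 with Dsg2 (exact permutation p = 0.127, adjusted 0.285). With the mean of the probe sets of each gene in place of 1 probe set, group means kept, r was 0.14 with Dst (exact permutation p = 0.722), -0.22 with Pkp2 (exact permutation p = 0.539) and 0.64 with Dsg2 (exact permutation p = 0.0957), and Dsg2 with Pkp2 had -0.76 (exact permutation p = 0.0250, adjusted 0.187). The relations of Plec with Dst and Pkp2 thus held for the most variable probe set of each gene after group means were removed, and gene means with group means removed were not tested. For Evpl and Plec r was 0.81 over all mice (exact permutation p = 0.0182, adjusted 0.164), with rho = 0.83 (exact permutation p = 0.0154, adjusted 0.0989). With the group means removed their r was 0.11 (permutation p = 0.825, adjusted 0.891). BTWT 2 and BTΔMAFF 4, the arrays that stood apart, were lowest for Pkp2 in their groups on these probe sets. They were also highest in their groups for Dsg2, for Plec (-0.074 and 0.78) and for Dst (0.38 and 0.42). The part of those arrays in the correlations was not tested beyond leaving out the 2 farthest mice. For Plec with Dst, the 2 mice left out did not include BTWT 2.

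**Figure D4:**
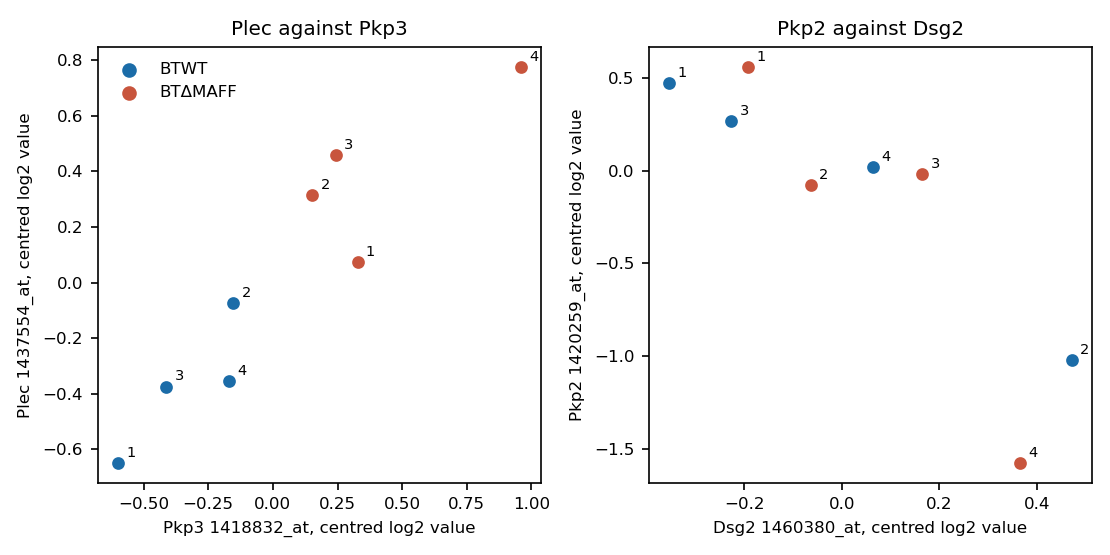
Log2 values of Plec against Pkp3 and of Pkp2 against Dsg2 in the 8 mice, 1 probe set per gene, with 1 numbered point per mouse coloured by group. Pkp3 and Plec were the most closely related pair (r = 0.94), and Pkp2 ran opposite to Dsg2 (r = -0.88).

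The partners of these plaque proteins were described from 6 lists, of which 39 of 43 genes were measured, with 1 probe set per gene. Of the 39, 4 were lower in BTWT and 1 was higher, and 34 were not called (by the same counting 3.37% of all genes were lower and 2.35% higher). Among the hemidesmosome receptors and their laminin, Itgb4 was lower, 1 of 5 measured genes. Itgb4 encodes the integrin β4 subunit that binds plectin. Its values were -1.05, -0.33, -0.68 and -0.027 in BTWT 1 to 4, and 0.15, 0.027, 0.16 and 0.41 in BTΔMAFF 1 to 4. The groups did not overlap, but BTWT 4 and BTΔMAFF 2 were near each other. The difference was -0.71 ± 0.22 (SE; 1.63-fold, limma unadjusted p = 0.0140, adjusted p = 0.730). It passed in every fit without 1 mouse, where the highest unadjusted p was 0.0416. Without both arrays that stood apart it did not pass (unadjusted p = 0.0553).

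Itga6, which encodes the partner subunit α6, did not pass (-0.17, 95% confidence interval -0.67 to 0.33), nor did Lamb3 (-0.54, -1.13 to 0.053) and Lama3 (0.29, -0.31 to 0.90), chains of the laminin they bind. Of the other desmosomal proteins 0 of 8 passed, among them Perp at -0.064, Pkp4 at -0.18 and Dsc3 at 0.063. Of the other plakins 0 of 2 passed, with Eppk1 (epiplakin) at -0.15 and Macf1, a plakin of actin and microtubules, at 0.42, although 1 of its 3 probe sets passed. Among the desmosome regulators, Prkca, the protein kinase Cα that makes desmosomes less adhesive, was lower (-0.45, unadjusted p = 0.0461), 1 of 7, with overlapping groups, and passed in only 1 of the 8 fits without 1 mouse. All 3 of its probe sets were negative, and the others did not pass (-0.20 and -0.18). Adam17, a protease that sheds Dsg2, was at 0.45 (unadjusted p = 0.0861) and Golga7, a cofactor of protein palmitoylation, at 0.13 (unadjusted p = 0.120).

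Of the 7 simple epithelial keratins, the filaments that the plaques anchor, Krt20 and Krt19 were lower. Krt20, the keratin of mature surface cells, was at -0.29, -0.038, -0.21 and -0.020 in BTWT 1 to 4 and at 0.086, 0.27, 0.35 and 0.020 in BTΔMAFF 1 to 4. The groups did not overlap, and the difference was -0.32 ± 0.096 (SE; limma unadjusted p = 0.0120, adjusted p = 0.694). Krt19 differed by -0.22 (unadjusted p = 0.0342), and this was lost in 5 of the 8 fits without 1 mouse. Krt8 and Krt18, the main keratin pair of the colonic epithelium, were at -0.16 (unadjusted p = 0.0835) and -0.10 (unadjusted p = 0.423). All 3 probe sets of Krt8 were negative, and 1 of them passed. The Krt8 probe set given here was at -0.22 without both arrays that stood apart (unadjusted p = 9.35e-05) and at -0.24 without BTΔMAFF 4 alone (unadjusted p = 0.000596), and it also passed with array weights (unadjusted p = 0.000155) and after quantile normalization (unadjusted p = 0.0445).

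Among 10 adherens junction genes, Nectin3, a cell adhesion molecule that binds afadin, was the one that differed, and it was higher in BTWT. Its values were 0.0010, 0.37, 0.45 and 0.36 in BTWT 1 to 4 and -0.78, -0.0010, -0.15 and -1.63 in BTΔMAFF 1 to 4. The groups did not overlap, and BTΔMAFF 4 was far below the rest. The difference was 0.93 ± 0.35 (SE; limma unadjusted p = 0.0336, adjusted p = 0.828). All 6 of its probe sets were positive and 5 passed, but the call was lost in 4 of the 8 fits without 1 mouse. Cdh1 (E-cadherin) was at 0.11 (unadjusted p = 0.311), Ctnna1 (α-catenin) at -0.27 (unadjusted p = 0.201, although 1 of its 4 probe sets passed as lower) and Nectin2 at -0.30 (unadjusted p = 0.132).

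**Figure D5:**
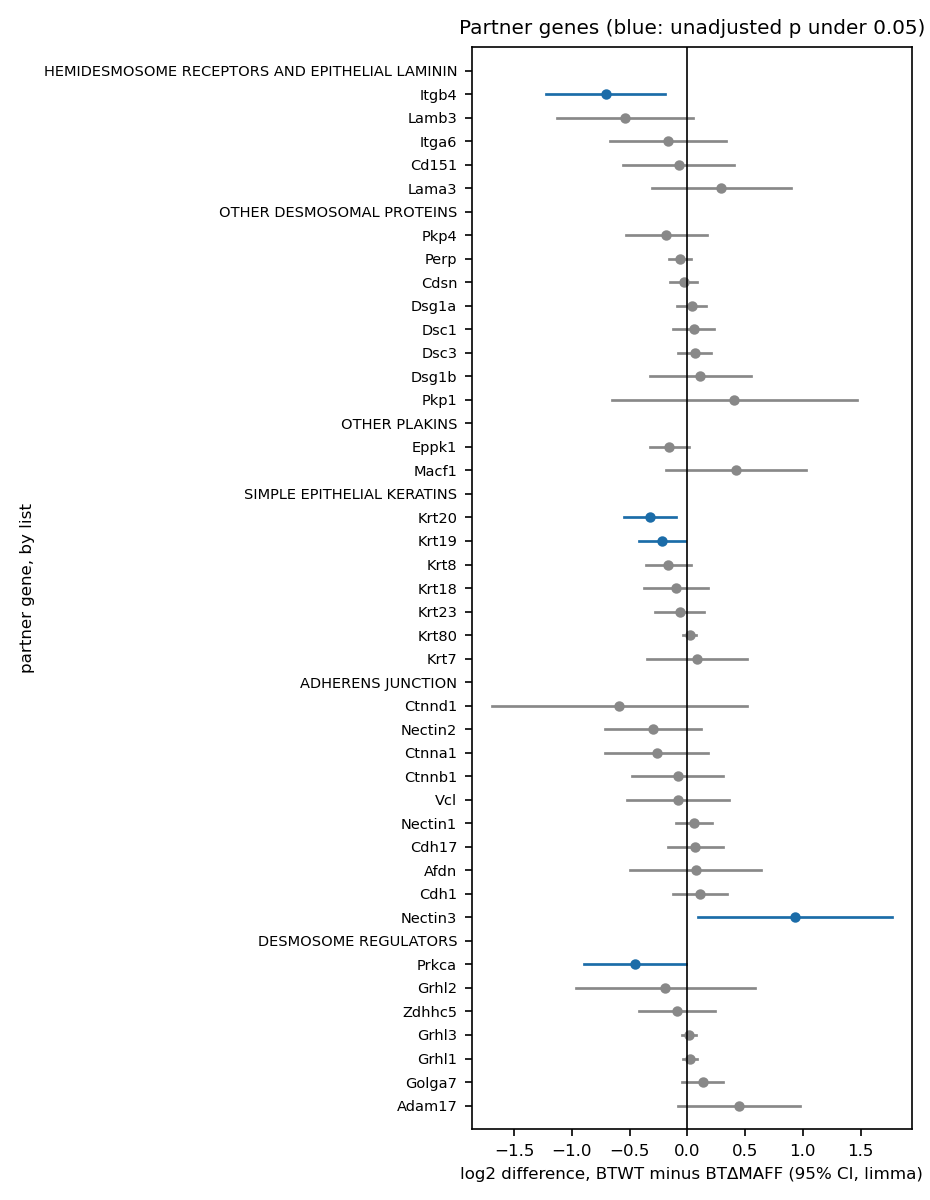
Differences (log2, BTWT minus BTΔMAFF, points) with 95% confidence intervals from limma (lines) for the partner genes, grouped by list. Itgb4, Krt20, Krt19 and Prkca lie below 0 and Nectin3 above it, and the intervals of the others include 0.

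Markers of the cell types that the sort could hold differed in part between the groups. Of 10 markers of colonic epithelium, 3 were lower in BTWT (Vil1, -0.40, unadjusted p = 0.00390, with Krt20 and Krt19), and the mean of the list ranged from -0.12 to -0.024 in BTWT and from 0.017 to 0.093 in BTΔMAFF mice. Epcam, the gene of the sort, was at 0.10 (unadjusted p = 0.675), and its other probe set was at -0.037. Of 8 surface colonocyte markers 2 were lower (Slc26a3, the chloride-bicarbonate exchanger, -0.48, unadjusted p = 0.000575, and Krt20) and 1 was higher (Ceacam20, 0.38), with list means from -0.16 to 0.083 in BTWT and from -0.090 to 0.14 in BTΔMAFF. Of 9 measured markers of proliferating cells 5 were higher, among them Birc5 (1.15), Cdk1 (1.08) and Top2a (1.02). The other probe sets of Top2a were at 0.013 (limma unadjusted p = 0.745) and -0.050 (unadjusted p = 0.536). The list mean of these proliferation markers ranged from 0.031 to 0.72 in BTWT and from -0.57 to -0.23 in BTΔMAFF mice, without overlap. Of 7 goblet cell markers, Fcgbp (-0.67) and Clca1 (-0.90) were lower and Agr2 (0.55) was higher, with list means from -0.28 to 0.066 and from 0.066 to 0.13. The part of these shifts in the lower values of Plec, Pkp3 and Evpl was not tested.

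Evpl and Ppl are also genes of squamous epithelium. Of 11 squamous markers 0 were lower and Sprr1a was higher (0.97, unadjusted p = 0.0397), while Krt10, next by p, was at -0.52 (unadjusted p = 0.0697), and the list mean ranged from -0.0059 to 0.031 in BTWT and from -0.097 to 0.093 in BTΔMAFF mice. Of 9 fibroblast and smooth muscle markers none passed and 4 were negative, with a median difference of 0.012. The 3 of smallest p were Col3a1 at -1.14 (unadjusted p = 0.0523), Col1a1 at -0.77 (unadjusted p = 0.127) and Dcn at -1.03 (unadjusted p = 0.171), and the list mean ranged from -0.30 to 0.27 in BTWT and from -0.012 to 0.79 in BTΔMAFF. The highest mean was that of BTΔMAFF 2, where Col1a1 was at 2.03 and Dcn at 1.80. None of 7 measured leukocyte markers passed, with Ptprc, which encodes CD45, at -0.0067 and the list mean from -0.015 to 0.063 and from -0.020 to 0.059. None of 4 endothelial or 5 glial and neuronal markers passed. Centred values do not show whether any of these markers was at or near 0. The difference between 3′ and 5′ control probe sets of Gapdh was -0.11 ± 0.14 in BTWT and 0.0054 ± 0.16 in BTΔMAFF mice (SD, n = 4 each; exact permutation p = 0.314), and that of β-actin was -0.036 ± 0.020 and 0.034 ± 0.051 (exact permutation p = 0.0857).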

How the data were processed

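Sorted colonic epithelial cells of 8 mice (4 BTWT, 4 BTΔMAFF) were profiled on Affymetrix mouse arrays after amplification of cDNA. The log2 values deposited by the authors cover 45101 probe sets, each centred so that its median over the arrays is 0. GeneSpring (methods) and Affymetrix Expression Console (submitters' notes) are named as software, and how probes were summarized and normalized is not given in the sources used here. Centred values hold no level or detection call, so the height over background is not known for any probe set, and the number of arrays limits the precision.

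Groups and replicate numbers were taken from the sample titles. The 64 Affymetrix controls were left out and limma 3.58.1 (R 4.3.3) was run on 45037 probe sets (lmFit, eBayes, no covariate, Benjamini-Hochberg adjustment over all), after a test on simulated data. Of these, 34945 carry 1 gene symbol in the array annotation, 932 several (not named) and 9160 none. Permutation tests, run in Python with scipy 1.17.1, were exact except for the correlations with group means removed, where they are approximate. A difference was called at an unadjusted p under 0.05. In lists and correlations each gene was read from its most variable probe set (largest SD, groups ignored). The limma p-values set each difference against the spread between mice within groups, which limma estimates with information from all probe sets.

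The 10 genes, the partner and marker lists and the alternatives were chosen with earlier results of these data known. All probe sets of the 10 genes were counted and are shown in the figures, though not each is named in the text. From each list up to 3 genes of smallest p are named, together with Epcam, Ptprc, Krt8, Krt18, Itga6, Itgb4 and Cdh1. Some list genes are not reported here. Alternatives were quantile normalization, centring of arrays, array weights, a robust prior, a filter on SD, the methods' unpaired test, the fold threshold of 2, another choice or the mean of probe sets, the replicate number as a block, and leaving out arrays.

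Replicate numbers run from 1 to 4 in both groups. The correlations of the deviations of same-numbered mice were 0.39, -0.040, 0.033 and -0.27, and nothing in the labels says that a number marks a shared cage or day, so the mice were not treated as paired.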

Additional observations from a re-analysis of the deposited data

Results flagged for a closer look

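Within groups of 4 mice, 1 mouse lay far from the other 3 in 2 of the 54 groups of the 27 probe sets, by Dixon's criterion. Chance alone flags about 5% of groups, here 2.7. BTΔMAFF 3 was at -0.18 for Jup probe set 1426873_s_at, while the other 3 BTΔMAFF mice ranged from 0.15 to 0.22. BTWT 3 was at -0.18 for Evpl probe set 1419133_at, while the other 3 BTWT mice ranged from -0.35 to -0.33.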

How the results depend on the processing

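The differences of Evpl, of the 3 Plec probe sets and of Pkp3 probe set 1418832_at kept their sign and passed in every fit without 1 mouse. Without 1 mouse each, 5 to 8 of the 27 probe sets were lower and 0 to 0 higher, their median difference was -0.18 to -0.07, 997 to 1823 of all probe sets were lower, 777 to 2674 higher (2674 without BTΔMAFF 4) and 0 to 6 passed adjustment, and 2 to 6 partner genes were lower and 0 to 3 higher. With array weights, 13 of the 27 were lower, as were 4104 of all probe sets, 7429 were higher, 510 passed adjustment, and 9 partner genes were lower and 4 higher. These weights gave BTΔMAFF 4 a weight of 0.120 and BTWT 3 one of 4.68. Without both arrays that stood apart, 1624 of all probe sets were lower and 3121 higher, 2 passed adjustment and 3 partner genes were higher. The SD filter left 25 at an adjusted p under 0.05 and 1 partner gene lower, and centring of arrays gave 1 at an adjusted p under 0.05. The unpaired test called 0 partner genes higher, and the mean of the probe sets 2. With 1 probe set per gene 4 members were lower, and with a fold over 2 as well, 0. Removing group means raised the pairs that passed from 1 to 4, by approximate p-values. With the replicate number as a block (replicate 1 alone correlated best with its own number), 6 of the 27 were lower. Of all probe sets, 1409 were lower and 1339 higher in this fit. Ppl (unadjusted p = 0.0870) and Pkp3 1418831_at (unadjusted p = 0.0533) did not pass in it, and Jup did (unadjusted p = 0.0340). The cause of these changes was not tested. Some of these fits held fewer arrays or probe sets. Signs turned in probe sets that had not passed. Under quantile normalization Dsc2 1426911_at was -0.0052 and Pkp2 1460511_at 0.061. Under centring Dsc2 1421156_a_at was -0.0067 and 1426911_at -0.014. With array weights these Dsc2 probe sets were -0.087 and -0.061, Pkp2 1460511_at 0.12, Dsp 1435494_s_at -0.13 and Dst 1421117_at -0.20. Without both arrays apart, Pkp2 1460511_at was 0.043 and Dst 1421117_at -0.090. Without 1 mouse, the ranges were -0.064 to 0.085 and -0.021 to 0.029 for Dsc2 1421156_a_at and 1426911_at, -0.24 to 0.034 for Dsg2 1460380_at, -0.14 to 0.17, -0.14 to 0.23, -0.0052 to 0.15 and -0.25 to 0.0072 for Dst 1421117_at, 1421276_a_at, 1423626_at and 1450119_at, and -0.22 to 0.53, -0.25 to 0.36 and -0.22 to 0.18 for Pkp2 1420259_at, 1449799_s_at and 1460511_at.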

Other observations

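A further probe set, 1452178_at, is annotated to Plec and to its neighbour Parp10 and was therefore not counted. Its values were -0.046, -0.036, -0.39 and 0.036 in BTWT 1 to 4 and 0.79, 0.49, 0.48 and -0.28 in BTΔMAFF 1 to 4. BTΔMAFF 4 lay among the BTWT mice and the other 3 BTΔMAFF mice lay above all of them. The difference was -0.48 ± 0.23 (SE), with a 95% confidence interval from -1.02 to 0.059 in limma. Its sign was that of the 3 probe sets of Plec alone, and which of the 2 genes it reads cannot be told apart.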
